A study of Homo sapiens with 40 samples.

Results

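HOX cluster genes encode homeodomain transcription factors that lie side by side in 4 clusters, HOXA, HOXB, HOXC and HOXD, and give cells their position along the body axis. A list of 38 of these genes was taken by name, 10 each from HOXA and HOXB and 9 each from HOXC and HOXD, out of 19451 protein-coding genes of at least 1 kb. Names and no measured value made the rule, though the list was drawn up with earlier results of these data known. The measure was the percent of a gene's annotated body that lay inside H3K27me3 peaks of a library, called the covered percent here. In 34 of the 38 genes the mean covered percent over all libraries was between 1% and 99%, which was needed for a test. HOXA2, HOXA6, HOXA9 and HOXD8 were below 1% and are described only by their values.

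KMS-11, the line used, comes from a human multiple myeloma with the t(4;14) translocation, which raises expression of NSD2, an enzyme that places dimethylation on lysine 36 of histone H3. H3K27me3 was mapped by CUT&Tag, in which an antibody directs a transposase to the mark in 50000 nuclei, followed by 13 PCR cycles. The comparison asked where H3K27me3 lies once NSD2 is removed, either by knockout or by induced degradation. Peak lists of 30 libraries, 2 for each of 15 groups, were used, and 10 further libraries (IgG, H3K27ac and H3K4me3) were not analysed here.

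The groups of the knockout experiment were NSD2 KO clones 3 and 12, each a single clone, and the unedited parental line of that experiment. The groups of the degradation experiment were NSD2-dTAG knock-in clones 8 and 11, also single clones, and the unedited parental line used to make them, each at days 0, 7, 14 and 21 of dTAGV-1. This compound brings proteins with the dTAG domain to the VHL ubiquitin ligase for degradation. The knock-in cells received 100 nM of it, and no dose is given for the parental line. All groups carry the translocation. The labels name no separate cultures for the parental libraries, so a p-value measures only how far libraries differ from each other, and that spread may be technical. For the clones it measures the spread between the 2 libraries of a clone at 1 time, not the spread between clones.

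HOX clusters are classic targets of Polycomb proteins. Polycomb repressive complex 2, with its enzyme EZH2, places H3K27me3 over silent HOX genes, and trithorax proteins such as KMT2A oppose it where the genes are active. In a developing embryo the genes at one end of a cluster are active in anterior tissue and those at the other end in posterior tissue, and paralogues that share a number in different clusters arose by duplication. In blood, HOXA and HOXB genes are known for their activity in stem and progenitor cells.

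The peak lists differed in length between groups, which bears on every value below. They held 94.0 to 168 Mb in the 4 KO libraries against 53.7 and 81.0 Mb in the 2 KO parental libraries. In the dTAG clones they held 36.1 to 69.9 Mb at day 0, 96.1 to 121 Mb at day 7, 78.3 to 133 Mb at day 14 and 83.4 to 153 Mb at day 21. The dTAG parental libraries held 39.0 to 99.8 Mb over all days. An estimate of depth, the background pileup of the peak caller, was 2.04 to 2.84 fragments per position in KO libraries and 1.5 and 2.58 in KO parental libraries. It was 0.922 to 2.31 at day 0 and 1.61 to 2.84 at day 21 in the dTAG clones. NSD2 itself lay almost outside peaks (at most 0.975% covered in any library), and peak lists do not show RNA or protein, so loss of NSD2 was not checked here. Plasma cell genes were sparsely covered in the 30 libraries, at most 7.39% for IRF4, 1.48% for PRDM1 and 2.66% for TNFRSF17, while XBP1 reached 35.4% in 1 library and SDC1 12.0%.

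Sequences around gene starts show which HOX promoters the mark touched. RefSeq promoter entries (GRCh38.p14, the same assembly as hg38) were at hand for 20 of the 38 genes, each running from 250 bases before to 50 bases after a gene start. Peaks touched this window in all 30 libraries for HOXA4, HOXA13 and HOXD1, and in none for HOXA6, HOXA9, HOXC4, HOXC5, HOXD3 and HOXD8. HOXC4 and HOXC5 share 1 start in this annotation, at position 54016888 of chromosome 12. All 30 libraries covered a segment downstream of it, at 54017585 to 54018378. The HOXD3 start used here (chromosome 2, 176157307) lies inside the annotated gene body, which begins at 176152529. A window that no peak touched thus does not show that the mark is absent nearby. The windows below are 2 that were covered over their whole length in every library (HOXA4 on the minus strand of chr7:27130708-27131007 and HOXD1 on the plus strand of chr2:176188418-176188717), 2 that no peak touched (HOXA6 on the minus strand of chr7:27147725-27148024 and HOXD8 on the plus strand of chr2:176129455-176129754) and 1 that varied between libraries (HOXD13 on the plus strand of chr2:176092471-176092770). They are written 5′ to 3′, and capitals mark each CG pair, the site of DNA methylation and of CpG islands, which reads the same on both strands.
HOXA4: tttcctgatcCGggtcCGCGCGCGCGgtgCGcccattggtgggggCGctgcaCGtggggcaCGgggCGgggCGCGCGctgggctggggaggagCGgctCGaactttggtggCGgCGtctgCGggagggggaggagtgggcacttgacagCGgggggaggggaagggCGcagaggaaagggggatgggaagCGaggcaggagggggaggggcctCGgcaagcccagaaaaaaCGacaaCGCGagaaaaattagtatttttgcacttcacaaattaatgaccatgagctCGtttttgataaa
HOXD1: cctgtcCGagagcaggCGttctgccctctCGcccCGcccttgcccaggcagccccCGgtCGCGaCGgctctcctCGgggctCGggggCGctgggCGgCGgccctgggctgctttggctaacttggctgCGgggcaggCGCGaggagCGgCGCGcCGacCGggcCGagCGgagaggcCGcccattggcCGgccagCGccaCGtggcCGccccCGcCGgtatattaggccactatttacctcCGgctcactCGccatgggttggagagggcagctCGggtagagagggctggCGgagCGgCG
HOXA6: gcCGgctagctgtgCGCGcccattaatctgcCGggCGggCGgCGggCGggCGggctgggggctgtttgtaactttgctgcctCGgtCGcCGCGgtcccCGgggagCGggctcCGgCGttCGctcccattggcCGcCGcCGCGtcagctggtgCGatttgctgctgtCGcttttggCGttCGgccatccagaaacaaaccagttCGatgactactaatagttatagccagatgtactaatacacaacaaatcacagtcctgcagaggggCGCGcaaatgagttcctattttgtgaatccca
HOXD8: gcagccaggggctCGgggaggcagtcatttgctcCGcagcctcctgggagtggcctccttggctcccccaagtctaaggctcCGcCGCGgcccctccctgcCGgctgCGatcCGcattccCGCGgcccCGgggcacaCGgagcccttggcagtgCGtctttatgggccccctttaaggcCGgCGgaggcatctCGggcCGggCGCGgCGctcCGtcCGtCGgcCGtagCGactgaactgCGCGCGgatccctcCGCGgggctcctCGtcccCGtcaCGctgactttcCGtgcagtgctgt
HOXD13: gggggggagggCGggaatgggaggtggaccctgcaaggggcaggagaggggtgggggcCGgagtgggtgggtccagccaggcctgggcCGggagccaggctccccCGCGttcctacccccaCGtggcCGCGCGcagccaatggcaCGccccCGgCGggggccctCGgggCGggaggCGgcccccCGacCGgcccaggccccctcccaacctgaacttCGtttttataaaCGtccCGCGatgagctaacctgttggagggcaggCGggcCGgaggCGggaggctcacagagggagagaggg

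Counts of CG pairs overlapped between HOX windows touched in every library and in none, though the highest count was in a touched window. Windows touched in all 30 libraries held 27 CG pairs (HOXA4), 36 (HOXD1) and 44 (HOXA13). Those touched in none held 29 (HOXA6), 34 (HOXD8), 25 (HOXD3), 22 (HOXA9) and 15 (HOXC4 and HOXC5). No test was run on these counts. Of all 35116 RefSeq promoter windows of the same length, 28.2% held at least 27 CG pairs and 12.7% at least 36, and 96.0% held at least 1. Among the 20 HOX windows the median was 22.5 CG pairs (range 4 to 44), against 14 over all promoters. The HOXD13 window, with 24 CG pairs, was touched in 10 of 16 KO and treated clone libraries, against 3 of 14 other libraries. A CG pair is a description of the letters, and nothing about a bound factor follows from it.

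The clusters also hold microRNA genes, which repress HOX and other transcripts, and their coverage differed sharply from place to place. Mature sequences from RefSeq (GRCh38.p14) follow, with the seed, bases 2 to 8, in capitals.
hsa-miR-196a-5p: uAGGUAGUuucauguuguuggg
hsa-miR-196b-5p: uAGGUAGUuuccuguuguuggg
hsa-miR-10a-5p: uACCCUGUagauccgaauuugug
hsa-miR-615-3p: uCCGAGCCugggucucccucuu
The first 2 share the seed AGGUAGU and come from 3 genes in 3 clusters, and miR-196 is known to cut the HOXB8 transcript in mouse embryos. MIR196A2, between HOXC9 and HOXC10 (chromosome 12, 53991738 to 53991847), lay wholly inside a peak in all 30 libraries. MIR196A1, beyond HOXB9 on chromosome 17 (48632490 to 48632559), was touched in 0 of 16 KO and treated clone libraries and in 2 of 14 others, and MIR196B, between HOXA9 and HOXA10 (chromosome 7, 27169480 to 27169563), in 1 of 16 and 3 of 14. MIR10A in the HOXB cluster (chromosome 17, 48579838 to 48579947) was touched in no library, and MIR10B beside HOXD4 (chromosome 2, 176150303 to 176150412) in 0 of 16 KO and treated clone libraries and 1 of 14 others. MIR615, inside HOXC5 (chromosome 12, 54033950 to 54034045), was covered in 0 of 16 KO and treated clone libraries and in 3 of 14 others. These are counts of libraries, and no test was run on them.

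The 4 clusters carried different amounts of the mark. HOXC (chromosome 12, 53938831 to 54056030) was the most covered, with 25.1% to 45.5% of its span in peaks over the 30 libraries. HOXA (chromosome 7, 27100354 to 27200091) had 8.91% to 24.8%, HOXB (chromosome 17, 48528526 to 48728750) 8.40% to 22.8%, and HOXD (chromosome 2, 176087487 to 176190907) 4.82% to 20.0%. Over all genes, 1.53% to 5.91% of the summed gene bodies lay in peaks. The strongest peak in HOXC, by the authors' -log10 q, was outranked by only 0.0186% to 0.139% of the peaks in its own list. In HOXB the share above the strongest peak was 0.0544% to 1.76%, in HOXA 1.51% to 19.4% and in HOXD 1.32% to 22.0%. The longest single peak of a library reached 7471 bp in HOXC and 2903 bp in HOXD.

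**Figure D1:**
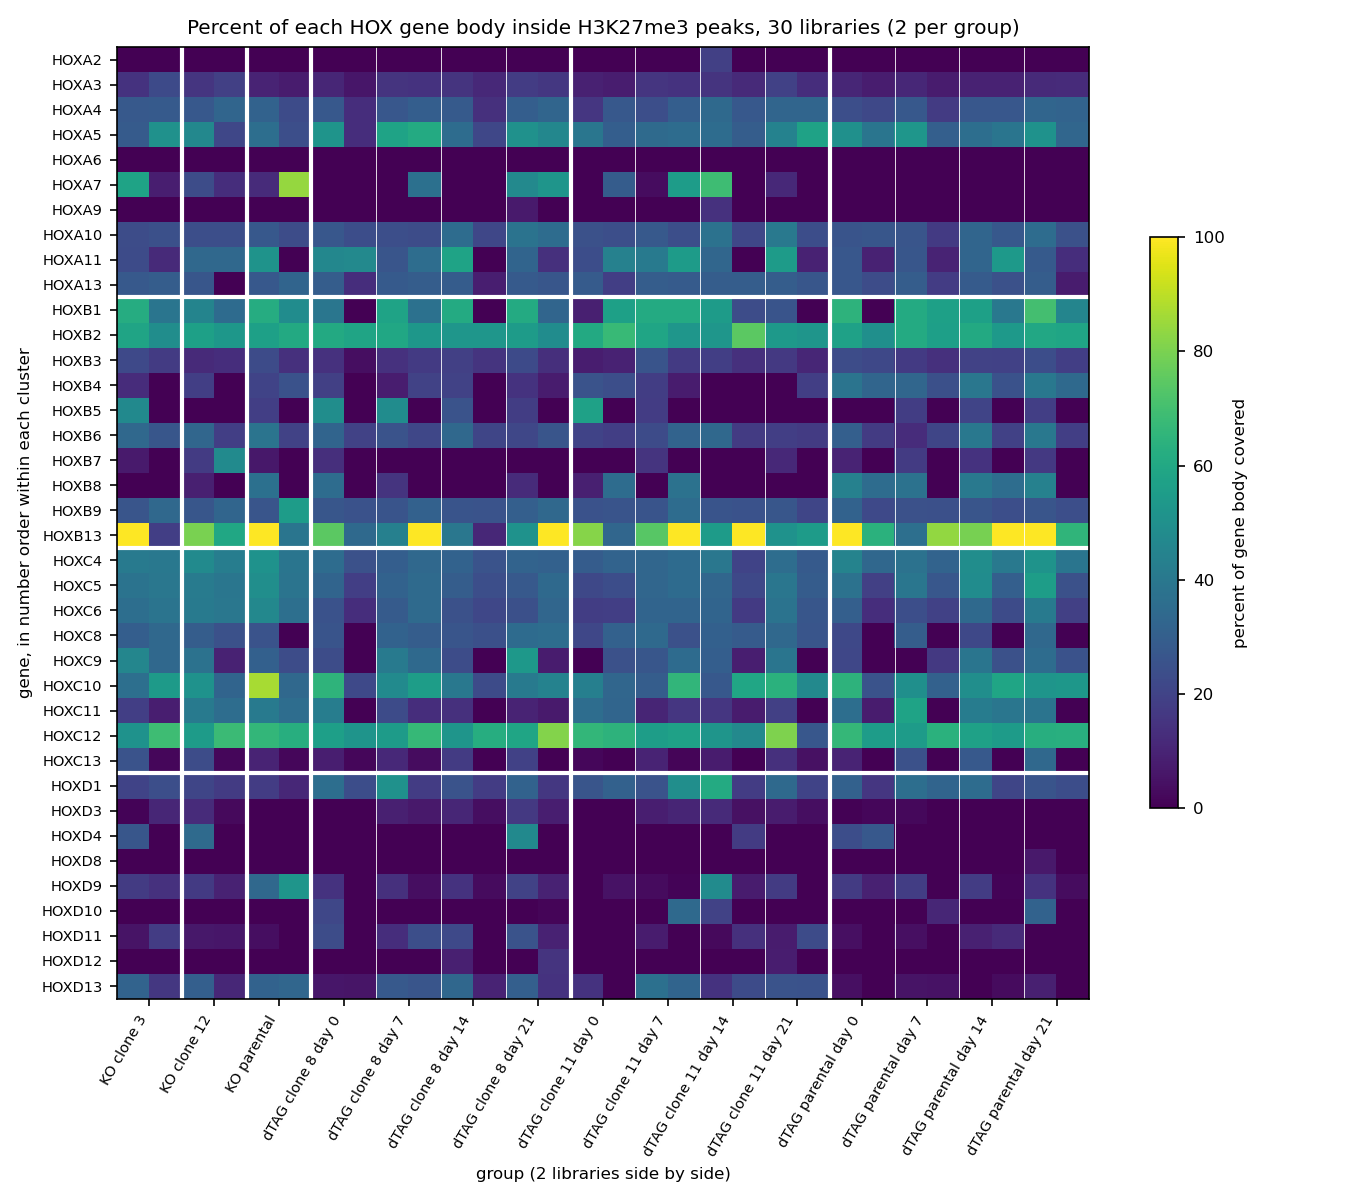
Covered percent of the 38 HOX genes (rows, in number order within each cluster) in 30 libraries (columns, 2 per group), on a colour scale of 0 to 100 percent. HOXB2, HOXB13 and HOXC12 were well covered in most groups, while HOXA2, HOXA6, HOXA9 and HOXD8 stayed at or near 0.

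Peaks sat at fixed places within each cluster rather than over its whole length. In HOXA 51.6% of the span was in no peak of any library, and in HOXB, HOXC and HOXD this was 48.4%, 31.8% and 48.3%. The share in a peak of every library was 3.04% in HOXA, 3.25% in HOXB, 11.6% in HOXC and 1.60% in HOXD. There were 31 segments of at least 200 bp that all 30 libraries covered, 6 in HOXA, 11 in HOXB, 12 in HOXC and 2 in HOXD, among 13882 on chromosomes 1 to 22 and X. The longest lay between HOXC9 and HOXC10 over the antisense gene HOXC-AS2 (chromosome 12, 53995313 to 53998041, 2729 bp). Others lay in HOXB2 (chromosome 17, 48542340 to 48543844), HOXB9 (48625266 to 48626311) and HOXC12 (chromosome 12, 53956457 to 53957502), and over the starts of HOXA4 (chromosome 7, 27130463 to 27131206) and HOXD1 (chromosome 2, 176188128 to 176188917), whose promoter windows are printed above.

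**Figure D2:**
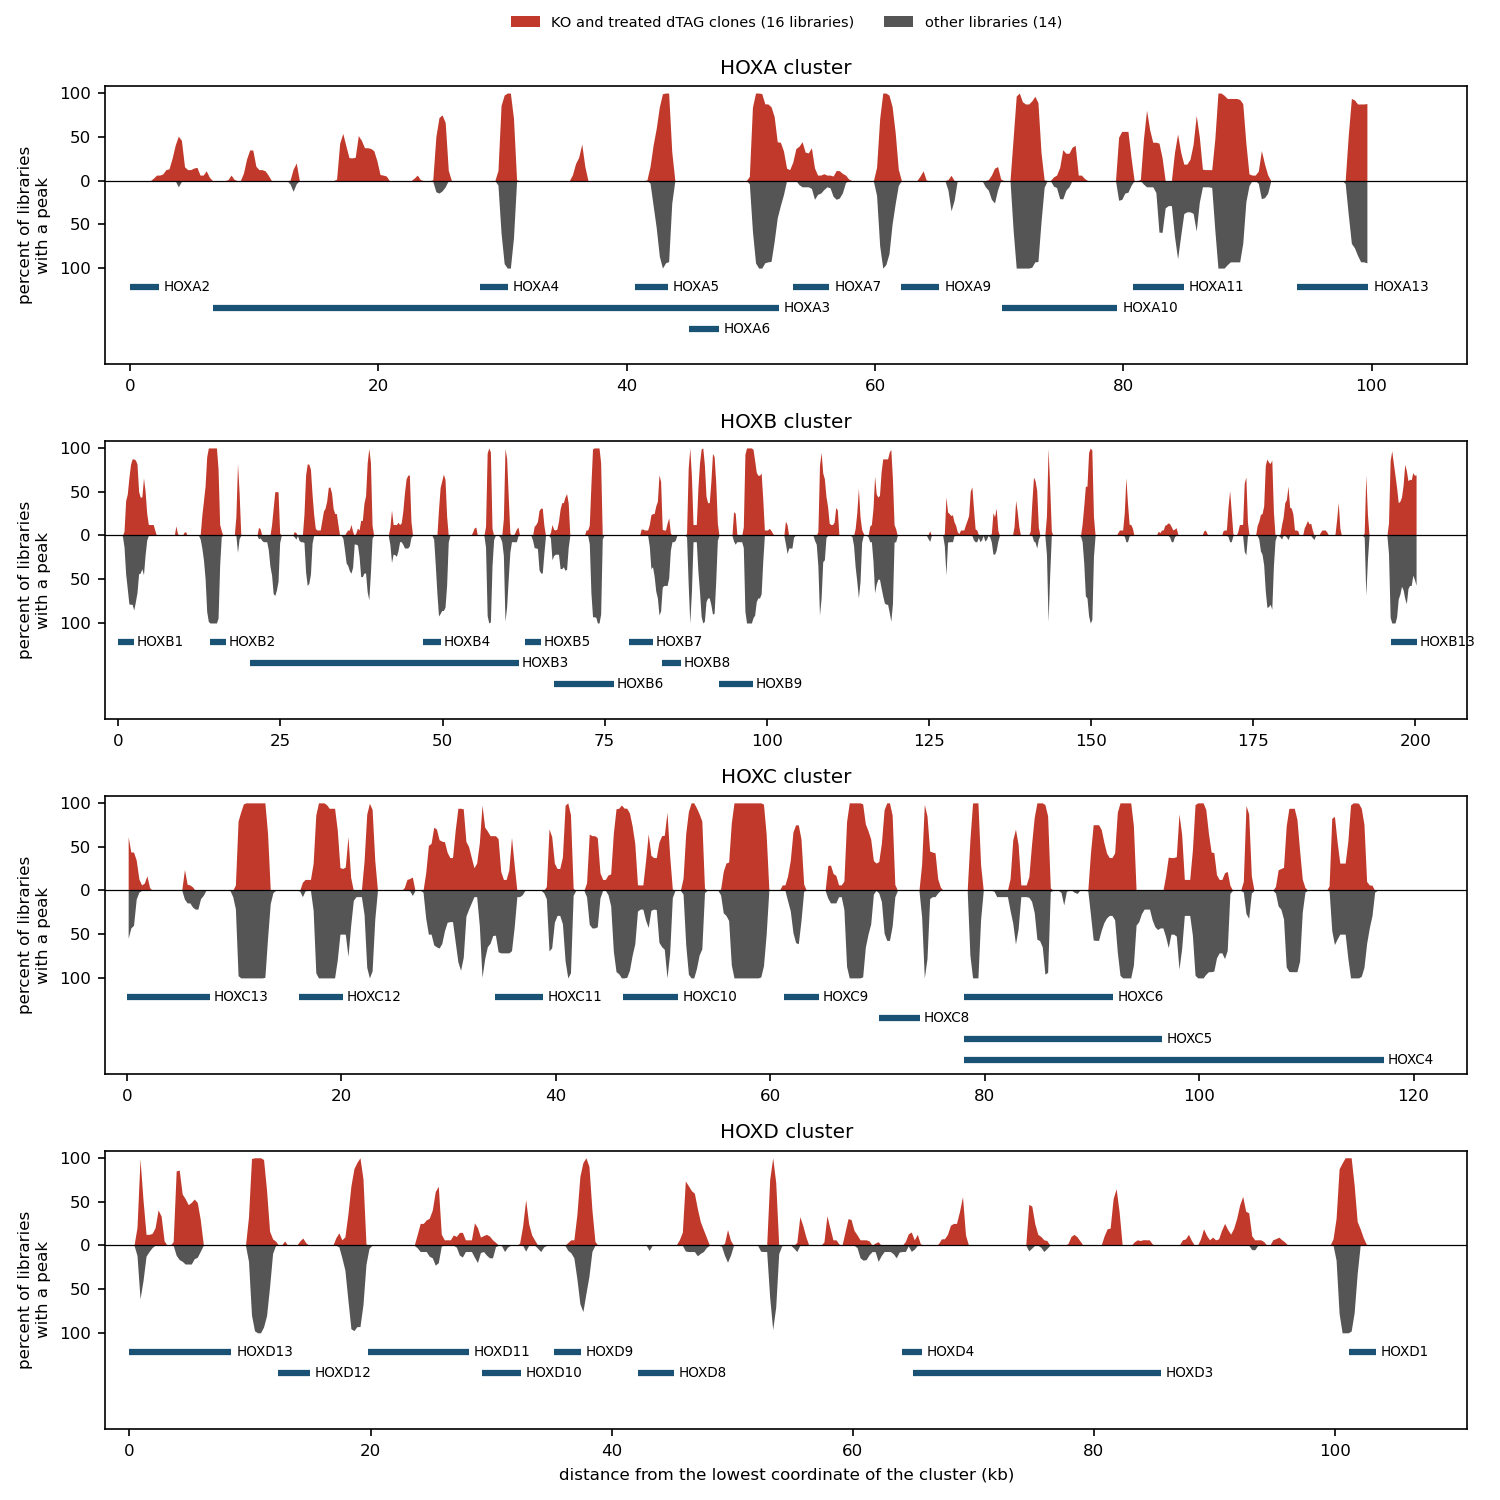
Percent of libraries with a peak (vertical axis, in steps of 250 bases) along each HOX cluster, against distance from its lowest coordinate in kb. Red above the line shows the 16 KO and treated dTAG clone libraries, grey below it the 14 other libraries, and blue bars are gene bodies. Most sites stand in both sets, and HOXD has several sites seen mainly above the line.

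Levels of single genes before NSD2 loss were taken over 6 libraries, 2 of the KO parental line and 4 of the untreated dTAG clones. The gene with most coverage was HOXA11 in HOXA (mean 35.4%), HOXB2 in HOXB (60.9%), HOXC12 in HOXC (61.3%) and HOXD1 in HOXD (24.4%). In the 2 KO parental libraries alone the means put HOXA7 (48.1%) above HOXA11 (25.8%), HOXB13 (69.3%) above HOXB2 (58.8%), and HOXD9 (42.9%) and HOXD13 (32.3%) above HOXD1 (14.5%). HOXC12 led HOXC there as well (64.5%). HOXA11 patterns the forearm and kidney, HOXB2 the hindbrain, and HOXC12 is known from hair follicles. HOXB13, a gene of the prostate and tail bud, was close behind HOXB2 at 60.4%. The least covered genes of HOXB and HOXC were HOXB7 (3.30%) and HOXC13 (3.98%), HOXD10 was at 3.51%, and HOXA2, HOXA6, HOXA9, HOXD3, HOXD4, HOXD8 and HOXD12 were at 0 in all 6 libraries. The spread between libraries was wide for many of these genes, so neighbours in this order are not told apart. HOXB2 and HOXB13 illustrate this: HOXB2 ranged from 48.5% to 74.9% over all 30 libraries and HOXB13 from 11.1% to 100%.

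The numbered order of the genes did not sort their levels. Over all 30 libraries the 7 anterior genes (numbers 1 to 3) averaged 23.0% ± 5.11 (SD over 30 libraries of the mean of the genes), the 15 central genes (4 to 8) 19.0% ± 5.05 and the 16 posterior genes (9 to 13) 23.7% ± 5.59. Single genes averaged 0.634% to 56.9% within the anterior block, 0% to 39.4% within the central block and 0.719% to 67.6% within the posterior block. Paralogues of 1 number also differed, from 0.634% (HOXA2) to 56.9% (HOXB2) at number 2 and from 1.06% (HOXD12) to 59.5% (HOXC12) at number 12. The KO clones had 23.0% ± 2.25, 21.7% ± 4.13 and 24.1% ± 4.11 in the anterior, central and posterior blocks (SD, n = 4), and KO parental libraries 22.2% ± 2.79, 22.1% ± 3.96 and 29.0% ± 6.37 (SD, n = 2).

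Knockout of NSD2 left most HOX genes without a called change. Of 34 tested genes 1 was called gained and 1 lost by limma with Benjamini-Hochberg adjustment over 13977 genes (adjusted p under 0.05). An unadjusted p under 0.05 was found for 3 of the 34, against 3954 of all 13977. Over all tested genes 18% were called gained and 0.744% lost. In a bulk peak list, a mark in fewer cells and less of it per cell cannot be told apart. The median difference was -1.82 percentage points for the HOX genes, with 12 higher and 20 lower in KO clones, against 1.46 points over all tested genes. HOXA3 was the gene gained and HOXD9 the gene lost.

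HOXA3 (chromosome 7, 27107010 to 27152583), a gene of the pharyngeal arches from which thymus and parathyroid form, spans 45.6 kb and holds HOXA4, HOXA5 and HOXA6 within its annotated body. It was covered by 14.7% and 22.3% in KO clone 3 and 15.5% and 19.0% in KO clone 12, against 9.86% and 7.43% in the KO parental line. All 4 KO libraries were above both parental ones. The difference was 9.23 percentage points (SE 2.33, adjusted p = 0.00917). In the 84.1% of HOXA3 that no other listed gene occupies, coverage averaged 17.0% ± 3.86 in the 4 KO libraries and 6.63% ± 1.08 in the 2 parental ones (SD). With the pileup as covariate the difference was 8.44 points (adjusted p = 0.00981). Scaled to an equal called length it was 1.35 points and no longer called (adjusted p = 0.742), and at a fold of at least 4 it turned to -0.725. Without KO parental replicate 2 the call was lost (adjusted p = 0.128).

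HOXD9 (chromosome 2, 176122719 to 176124937), a gene of trunk and limb patterning, was covered by 17.4% and 14.3% in KO clone 3 and 16.9% and 9.60% in KO clone 12, against 33.9% and 52.0% in the KO parental line. No KO library reached the lower parental value. The difference was -28.4 percentage points (SE 9.09, adjusted p = 0.0360), and it was -53.7 after scaling by called length (adjusted p = 0.00141). With the lists shortened to equal length it turned to 6.74 points (adjusted p = 0.512). The call held without KO parental replicate 1 and was lost without any other of the 6 libraries, with adjusted p of 0.0543 to 0.398. The dTAG parental line, also unedited KMS-11, was at 0% to 18.0% in its 8 libraries, below both KO parental libraries.

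HOXD13 (chromosome 2, 176087487 to 176095944), which shapes digits, was likewise high in the KO parental line. It was covered by 31.9% and 16.1% in KO clone 3 and 30.2% and 11.1% in KO clone 12, against 31.5% and 33.1% in the KO parental line, a difference of -9.96 points (SE 6.48, adjusted p = 0.365). After scaling by called length it was called lost (-30.9 points, adjusted p = 0.00274). The 8 dTAG parental libraries lay between 0% and 8.74%. HOXD3 (chromosome 2, 176152529 to 176173098), which acts in the skeleton of the neck, was at 0.958% and 10.6% in KO clone 3 and 12.4% and 2.40% in clone 12, against 0% in both parental libraries. The HOXD3 difference of 6.59 points was not called (SE 2.97, adjusted p = 0.150).

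Among the other genes with the largest differences in KO clones none passed the test on the unscaled values. In HOXA the lowest difference was that of HOXA7 at -22.5 points (SE 19.5), where 1 parental library had 84.0% and the other 12.2%. In HOXB it was HOXB8 at -16.3 points (SE 13.8), and the highest was HOXB7 at 14.9 points (SE 7.30), where 1 library of clone 12 had 47.8%. In HOXC the highest was HOXC8, a gene of the thoracic spine, at 16.8 points (SE 10.1), and the lowest HOXC10 at -16.7 points (SE 15.3, called lost after scaling at -46.8 points with adjusted p = 0.0258). HOXC8 was covered by 29.9%, 33.7%, 29.3% and 24.9% in the KO libraries, against 25.4% and 0% in the parental ones. HOXD4 had the highest difference in HOXD at 15.4 points (SE 9.89), with 26.9% and 34.5% in replicate 1 of clones 3 and 12 and 0% in replicate 2 of both clones and in the parental line.

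**Figure D3:**
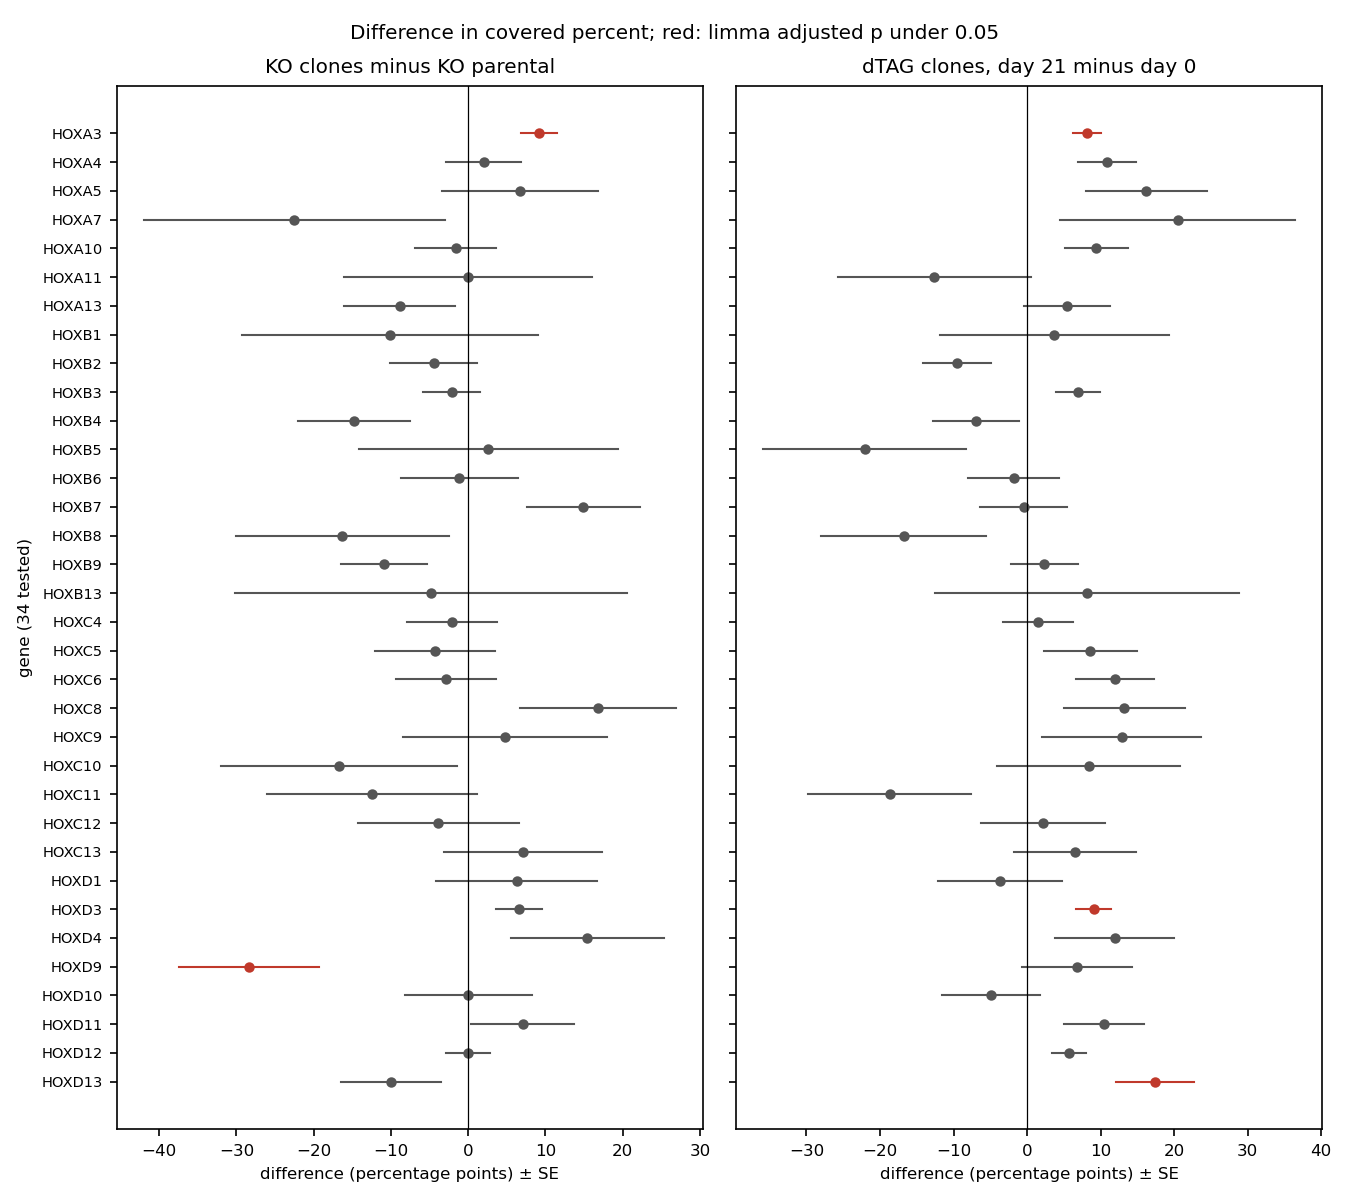
Difference in covered percent (percentage points, horizontal axis, with SE) for the 34 tested HOX genes in KO clones minus KO parental (left) and dTAG clones at day 21 minus day 0 (right). Red points have a limma adjusted p under 0.05: HOXA3 and HOXD9 on the left, and HOXA3, HOXD3 and HOXD13 on the right.

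Degradation of tagged NSD2 gave a few gains and no called loss. At day 7 limma called 4 of 34 genes gained (HOXA3, HOXB3, HOXD3 and HOXD13), at day 14 it called 1 (HOXD3) and at day 21 it called 3 (HOXA3, HOXD3 and HOXD13), with adjusted p under 0.05. In either direction 5, 4 and 8 of the 34 had an unadjusted p under 0.05 at these days, against 4534, 4581 and 5074 of all 13977 tested genes. No HOX gene was called lost at any of these days. With the pileup covariate 1, 3 and 2 were called lost (HOXC11 at each day, HOXB4 and HOXB8 at day 14 and HOXB8 at day 21), against 2.05%, 5.38% and 4.64% of all tested genes. After scaling by called length 12, 16 and 14 of 33 were lost, against 29.4%, 32.4% and 32% of all. Where lists are longer, this scaling favours losses of well covered genes by construction. Over all tested genes 21.1%, 22% and 26.5% were called gained at days 7, 14 and 21, and 0.243%, 0.63% and 0.494% lost. The HOX share gained at day 21 was 8.82%. The 3 comparisons share their day 0 libraries and are not independent. The median difference of the HOX genes was 4.60, 2.62 and 6.68 points at days 7, 14 and 21, against 1.90, 1.5 and 2.05 points over all tested genes.

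HOXD3 was outside peaks in all 4 day 0 libraries of the dTAG clones. Clone 8 had 8.93% and 6.79% at day 7, then 10.6% and 3.68% (day 14), then 16.7% and 8.44% (day 21). Clone 11 had 8.46% and 10.4%, 12.0% and 4.65%, and 7.47% and 3.61% at the same days. Every treated library was above every day 0 library. The difference at day 21 was 9.05 points (SE 2.42, adjusted p = 0.00941), and after scaling by called length HOXD3 was the only HOX gene still called gained (6.57 points, adjusted p = 0.00270). With the pileup covariate it was 7.82 points (adjusted p = 0.0547), and without clone 8 day 21 replicate 1 it was 6.99 points (adjusted p = 0.0668). In all, 16 of 16 KO and treated clone libraries had some coverage in HOXD3, against 3 of 14 others, which were the 2 day 0 and 1 of the day 7 libraries of the dTAG parental line.

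HOXD13 was covered by 5.97% and 5.57% in untreated clone 8, and treated clone 8 had 27.9% and 26.4% at day 7, then 33.5% and 9.77% (day 14), then 30.4% and 14.7% (day 21). Untreated clone 11 had 14.6% and 0%, and treated clone 11 had 36.8% and 32.3% at day 7, then 14.7% and 22.7% (day 14), then 25.6% and 25.0% (day 21). At days 7 and 21 the lowest treated library exceeded the highest day 0 library, and at day 14 the sets overlapped. The difference was 24.3 points at day 7 (SE 5.29, adjusted p = 0.00368), 13.6 at day 14 (SE 5.29, adjusted p = 0.0748) and 17.4 at day 21 (SE 5.29, adjusted p = 0.0204). At day 7 the call held without any single one of the 8 libraries and was lost after scaling by called length (13.2 points, adjusted p = 0.0549). The call at day 21 was lost without clone 8 day 0 replicate 2, clone 8 day 21 replicate 1, clone 11 day 0 replicate 2 or clone 11 day 21 replicate 1, with adjusted p of 0.0579 to 0.120, and also after scaling by called length (6.70 points, adjusted p = 0.314) and with the pileup covariate (13.1 points, adjusted p = 0.118). The KO parental line, in which NSD2 is intact, was at 31.5% and 33.1%, within the range of the treated libraries (9.77% to 36.8%).

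HOXA3 had 10.6% and 6.03% at day 0 in clone 8, and 14.9% and 14.5%, 15.2% and 11.7%, and 17.7% and 16.2% at days 7, 14 and 21. Clone 11 had 9.18% and 8.07% at day 0, and 15.5% and 14.6%, 14.9% and 12.0%, and 19.4% and 13.1% at those days. Every treated library was above every day 0 library. The difference was 8.15 points at day 21 (SE 1.91, adjusted p = 0.00394), and the call held without any single one of the 8 libraries. It was 6.58 points with the pileup covariate (adjusted p = 0.0234) but turned to -2.54 points after scaling by called length (adjusted p = 0.369) and to -1.01 points at a fold of at least 4. At day 7 it was 6.39 points (SE 1.91, adjusted p = 0.0236), and that call held only without clone 8 day 0 replicate 1 among the 8 libraries left out in turn.

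HOXB3, a hindbrain gene that spans 41.4 kb and holds HOXB4, was called at day 7 alone. It had 14.4%, 17.1%, 26.1% and 16.8% at day 7, against 14.4%, 3.75%, 7.84% and 9.69% at day 0, so that the lowest day 7 library and the highest day 0 library were both at 14.4%. The difference was 9.65 points (SE 2.98, adjusted p = 0.0283) and turned to -0.303 after scaling by called length (adjusted p = 0.963). It was called without 3 of the 8 libraries left out in turn, with adjusted p up to 0.164.

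**Figure D4:**
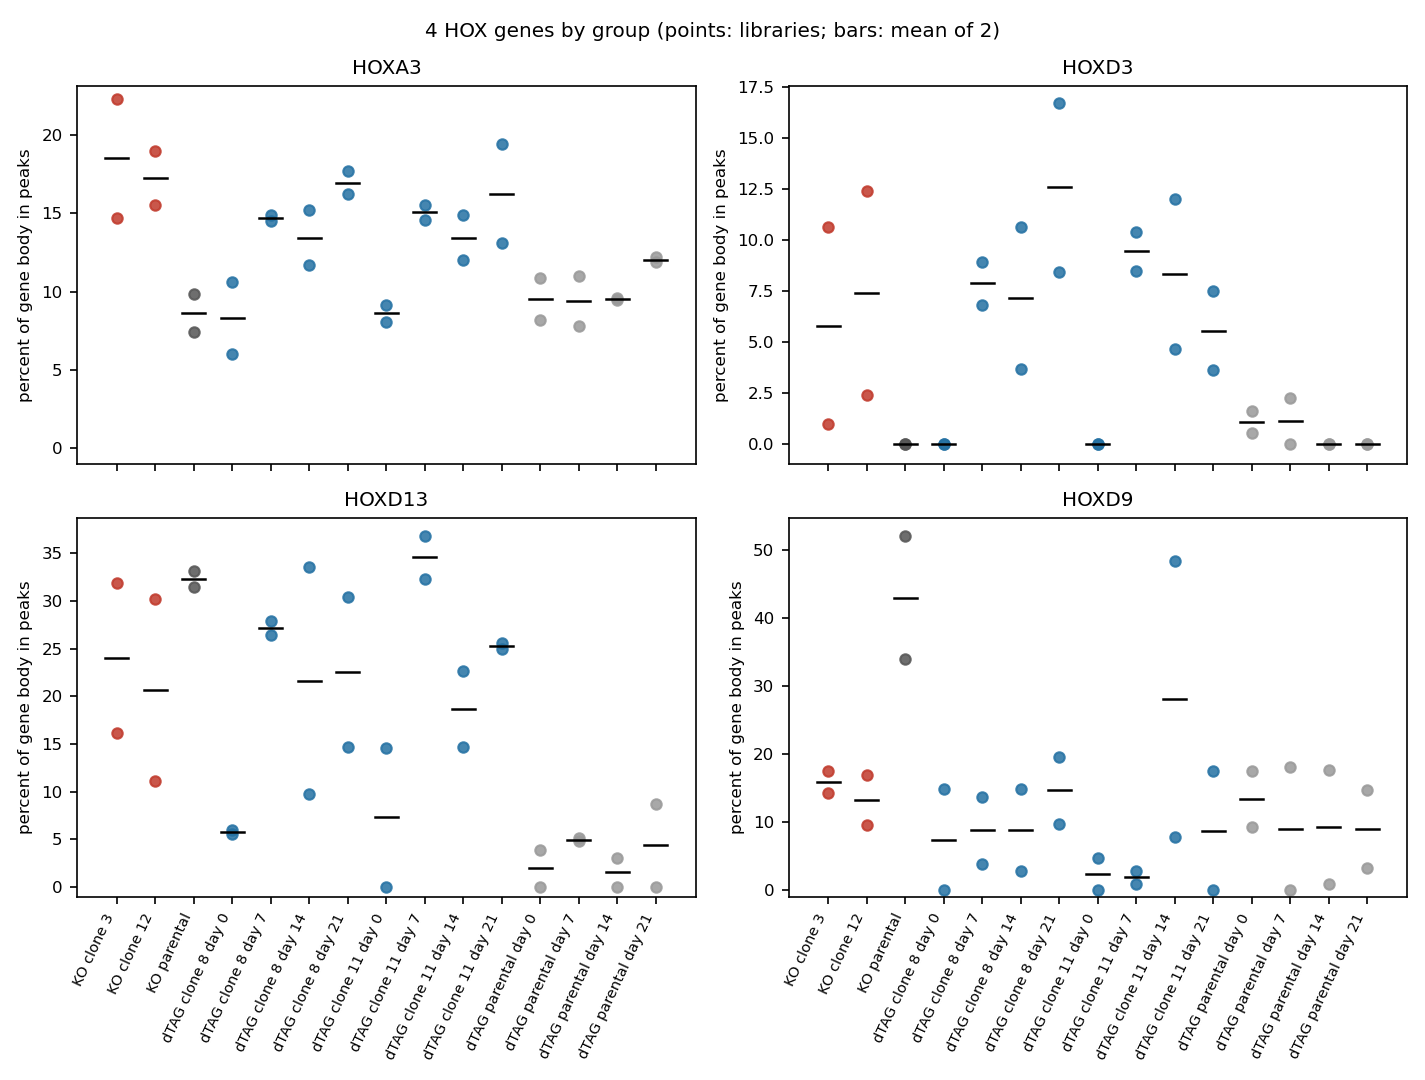
Covered percent (vertical axis) of HOXA3, HOXD3, HOXD13 and HOXD9 in the 2 libraries of each group (points) with their mean (bars). Red marks KO clones, dark grey the KO parental line, blue the dTAG clones and light grey the dTAG parental line. HOXA3 and HOXD3 are higher in KO and treated clones (HOXA3 in treated clones is not on the values scaled by called length), HOXD13 is lowest in untreated dTAG clones and in the dTAG parental line, and HOXD9 is highest in the KO parental line.

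The remaining genes with the largest differences at day 21 were not called on the unscaled values. In HOXA the highest was HOXA7 at 20.5 points (SE 16.0), with 47.1%, 52.1%, 11.7% and 0% at day 21, against 29.1% in 1 day 0 library and 0% in the other 3. HOXA11 was lowest at -12.6 points (SE 13.1), and was called lost after scaling by called length (-58.0 points, adjusted p = 0.00463). In HOXB the lowest was HOXB5 at -22.1 points (SE 13.8) and the highest HOXB13 at 8.17 points (SE 20.7), whose 4 day 21 libraries ran from 50.8% to 100% and whose difference was -48.2 points after scaling by called length. HOXB2 had 54.9%, 48.5%, 54.0% and 52.3% at day 21, against 60.9%, 58.3%, 60.9% and 67.5% at day 0. Its groups did not overlap, but the difference of -9.47 points missed the threshold (SE 4.63, adjusted p = 0.150), and was called after scaling by called length (-76.6 points, adjusted p = 0.000751). With gaps of up to 3 kb joined it turned to 38.1 points (adjusted p = 0.00405). In HOXC the highest was HOXC8 at 13.2 points (SE 8.24, but -7.74 after scaling by called length) and the lowest HOXC11 at -18.7 points (SE 11.1). HOXC11 had 10.0%, 7.41%, 18.8% and 0% at day 21, against 42.4%, 0%, 35.8% and 32.8% at day 0. It was called lost with the pileup covariate (-37.9 points, adjusted p = 0.00408) and after scaling (-40.4 points, adjusted p = 0.0157). In HOXD the lowest was HOXD10 at -4.91 points (SE 6.71), where day 0 rests on 1 library at 21.1%. HOXD12 was at 15.1% in 1 library of clone 8 and 7.90% in 1 of clone 11 at day 21, against 0% in every day 0 library (5.75 points, SE 2.31, adjusted p = 0.0761).

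HOXA2, HOXA6, HOXA9 and HOXD8 were left untested because their mean over all 30 libraries was below 1%. That they were low both with and without NSD2 follows from this choice. HOXA6 was at 0% in all 30 libraries. HOXA2, a gene of the hindbrain and branchial arches, had 19.0% in 1 library (clone 11 day 14 replicate 1) and 0% in the other 29. HOXA9, a driver of blood progenitor growth when overexpressed in leukaemia, had 14.2% in that same library, 7.39% in clone 8 day 21 replicate 1 and 0% in the other 28. HOXD8 had 7.02% in 1 dTAG parental library at day 21 and 0% elsewhere.

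The dTAG parental line, which has no tagged NSD2, was the control for the compound and for time. At day 21 against day 0 limma called none of the 34 HOX genes (adjusted p under 0.05). Of these 1 had an unadjusted p under 0.05, against 536 of all 13977 tested genes. Over all tested genes 0.0143% were called gained and 0% lost. HOXD3 was at 0% in both day 21 libraries, against 0.549% and 1.63% at day 0, and HOXD13 was at 8.74% and 0%, against 3.91% and 0%. HOXA3 was at 11.9% and 12.2%, against 10.9% and 8.17%.

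Whether the change by day 21 differed between dTAG clones and the parental line was tested directly. No HOX gene passed (limma adjusted p under 0.05), where 1.93% of all tested genes were called higher and 0.0859% lower. Only 2 HOX genes had an unadjusted p under 0.05, against 2299 of all 13977 tested genes. HOXD3 had a difference of changes of 10.1 points (SE 4.19, adjusted p = 0.225), HOXD13 of 15.0 points (SE 9.16, adjusted p = 0.464) and HOXA3 of 5.63 points (SE 3.30, adjusted p = 0.436). On the unscaled values the changes in treated clones were therefore not shown to differ from those of the parental line for any HOX gene. After scaling by called length 2 of 33 HOX genes were called in this limma test. They were HOXD3 and HOXD4, at 8.84 and 54.2 points (adjusted p = 0.0451 and 0.0102). Of all 13932 genes tested on that scale 667 were called higher and 796 lower. HOXD4 rests on 2 covered day 0 parental libraries and 1 covered day 21 clone library.

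At the scale of whole clusters, the mean percent of span was higher with NSD2 loss in all 4. It was also higher in all 4 at day 21 in the dTAG parental line. After scaling by called length each of these differences was negative, which the scaling favours by construction where lists are longer. No test was run on the clusters, and the ranges are given instead. HOXA had 20.2% ± 0.712 in the 4 KO libraries, against 16.5% ± 2.48 in the 2 KO parental libraries (SD), and the groups did not overlap. In the dTAG clones HOXA had 14.0% ± 1.13 at day 0, 19.4% ± 0.736 at day 7, 18.9% ± 6.13 at day 14 and 20.2% ± 4.09 at day 21 (SD, n = 4 each), with day 7 above every day 0 library and days 14 and 21 overlapping it. HOXD had 12.6% ± 2.78 in KO clones and 9.59% ± 0.512 in the parental line, with overlap. In the dTAG clones HOXD had 6.89% ± 2.52 at day 0, 14.0% ± 0.304 at day 7, 14.1% ± 3.86 at day 14 and 15.0% ± 3.43 at day 21, and the groups at days 7 and 21 did not overlap day 0. HOXB had 18.4% ± 3.06 in KO clones and 16.7% ± 4.70 in the parental line, and 16.8% ± 3.25 at day 21 and 13.3% ± 4.02 at day 0. HOXC had 39.6% ± 4.15 in KO clones and 38.3% ± 6.31 in the parental line, and 33.9% ± 6.13 at day 21 and 31.1% ± 5.55 at day 0. In the dTAG parental line the mean rose by 3.43 (HOXA), 1.81 (HOXB), 5.11 (HOXC) and 1.54 points (HOXD) by day 21. All 4 clusters overlapped there between day 21 and day 0. In the same order the differences were 3.73, 1.71, 1.33 and 3.05 points in KO clones. In the dTAG clones at day 21 they were 6.21, 3.48, 2.84 and 8.09 points.

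**Figure D5:**
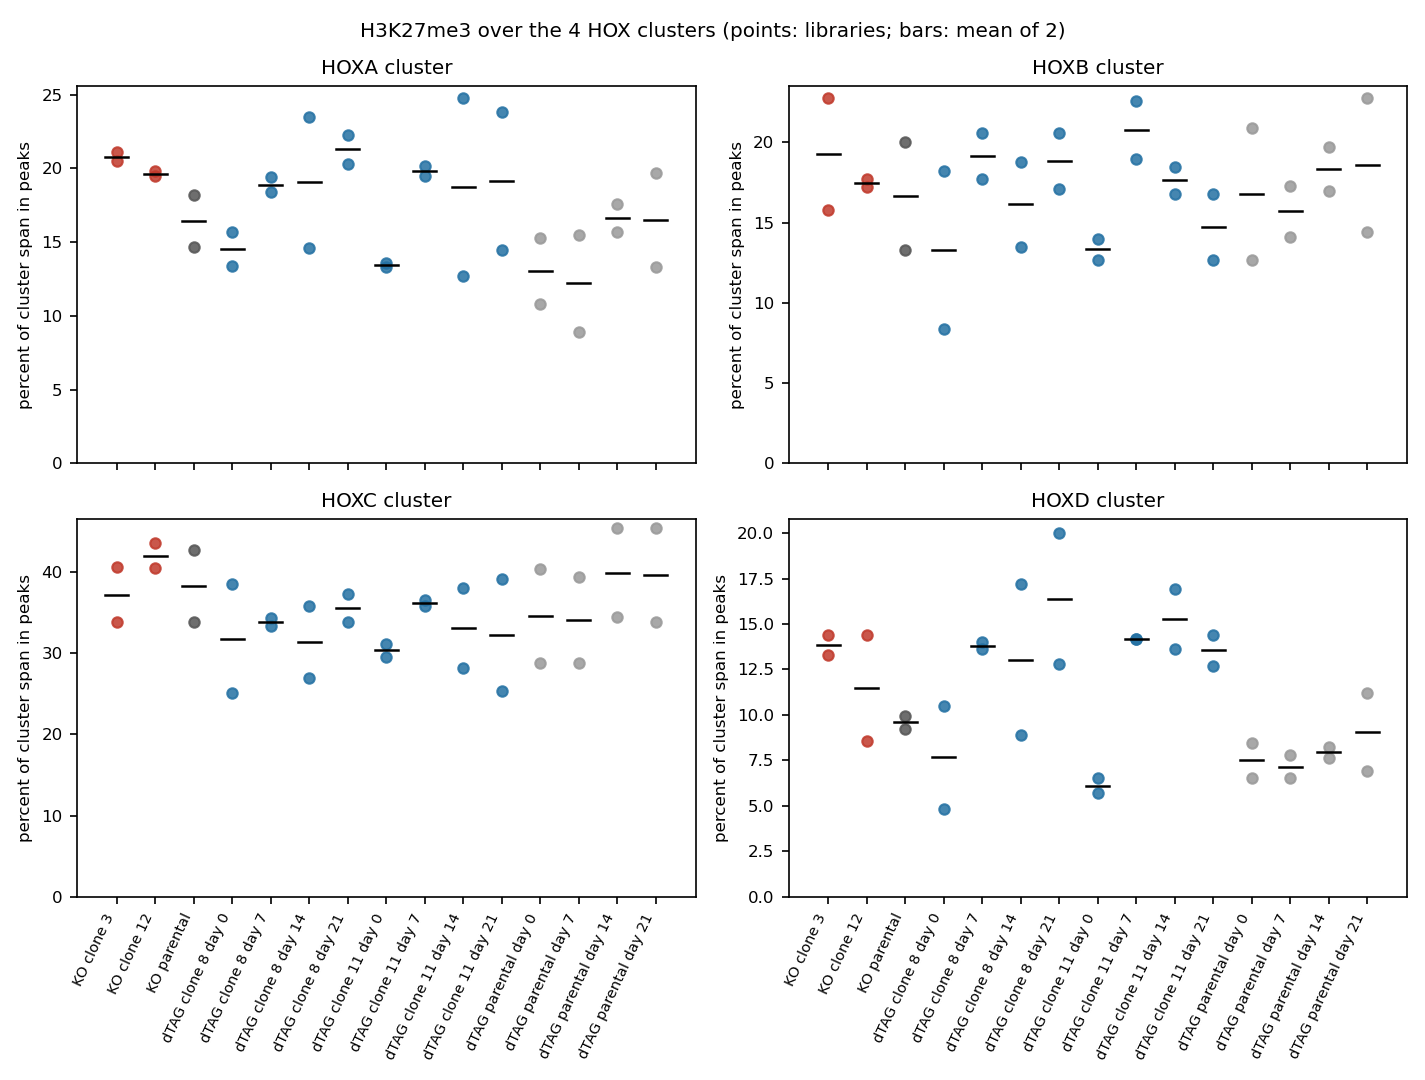
Percent of the span of each HOX cluster inside peaks (vertical axis, from 0) in the 2 libraries of each group (points) and their mean (bars). Red marks KO clones, dark grey the KO parental line, blue the dTAG clones and light grey the dTAG parental line. HOXD is at 8.54% to 14.4% in KO clones, against 9.22% to 9.95% in the KO parental line. It is at 8.89% to 20.0% in treated dTAG clones, against 4.82% to 10.5% in untreated ones. The dTAG parental line reaches 11.2%.

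Relative to the average gene body, coverage of HOXB and HOXC was lower in KO and treated clones than in the other libraries. Their own mean coverage was not much lower: HOXC had 35.2% of its span in peaks, against 35.5% in the others, and HOXB 18.0%, against 16.1%. The average gene body was at 4.23%, against 2.57%. HOXC was covered 8.45 times as densely as the average gene body in the 16 KO and treated clone libraries (range 6.87 to 11.5), against 14.3 times in the 14 others (11.3 to 17.7). HOXB was at 4.32 times (3.29 to 5.20), against 6.37 times (5.48 to 7.84). The sets did not overlap for HOXB and met for HOXC between 11.3 and 11.5 times. HOXA and HOXD overlapped between the sets. HOXA was at 4.70 times (3.34 to 5.54), against 5.94 times (4.47 to 8.75). HOXD was at 3.32 times (2.43 to 4.22), against 3.14 times (2.43 to 4.16). Called length and pileup moved with these ratios as given above, and their part in them was not tested.

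Coverage was also scaled to an equal called length per library. This moved the median difference of all genes to -1.31 points in KO clones and -1.36 at day 21. Such scaling is close to the division by the average gene body above, so its result is not a separate observation. On that scale 0 HOX genes of 33 were called gained and 10 lost in KO clones, and 1 gained and 14 lost at day 21, by limma with adjusted p under 0.05. Over all genes on that scale 10.9% were called gained and 13.5% lost in KO clones, and 15.6% gained and 32% lost at day 21. The median HOX difference was -19.1 points in KO clones and -18.0 at day 21. Scaling multiplies all values of a library by 1 factor, which is lower for a longer list. A well covered gene therefore falls by more points than a sparsely covered one. The HOX clusters were covered above the average gene body, and KO and treated clones had the longer lists. Larger HOX falls and more HOX losses than over all genes are thus favoured by construction. Lists shortened to equal length, which compare the strongest peaks of each library, gave 0 HOX genes gained or lost in KO clones and at day 21. The median HOX difference at day 21 was thus positive on the unscaled values and negative on the scaled ones.

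Windows of 25 kb that overlap the clusters were tested in the same way. In KO clones 3 of 25 windows were called gained (limma, adjusted p under 0.05), against 37.3% of all windows tested. At day 21 11 of 25 were gained, against 51.6%. The window at the HOXA2 end of HOXA (chromosome 7, 27100001 to 27125000) gained 14.8 points in KO clones (SE 3.79, adjusted p = 0.00540) and 9.77 points at day 21 (SE 3.09, adjusted p = 0.0130). The window beyond HOXA13 (27200001 to 27225000), nearly all of it outside the cluster, gained 14.7 points in KO clones (SE 2.86, adjusted p = 0.000897) and 12.3 points at day 21 (SE 2.33, adjusted p = 0.000387). After scaling by called length the window at the HOXA2 end kept both calls. It gained 11.7 points in KO clones and 7.31 at day 21 (limma adjusted p = 0.00637 and 0.0185). The window beyond HOXA13 kept its call in KO clones (7.28 points, adjusted p = 0.0370). It lost its call at day 21 (4.38 points, adjusted p = 0.0949). In HOXD 4 of 5 windows were gained at day 21, by 7.76 to 8.69 points, and 0 of 5 in KO clones. None of these 4 HOXD calls held after scaling by called length. HOXC had 1 of 6 windows gained at day 21. After scaling by called length 5 of its 6 windows were called lost in KO clones and 6 of 6 at day 21, where 12.8% and 18.2% of all windows were lost. On that scale HOXA had 1 and 2 of 5 windows lost in these comparisons, HOXB 4 and 5 of 9, and HOXD 1 and 0 of 5. Scaling favours losses in well covered windows by construction where lists are longer.

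Segments that split the 2 sets of libraries were searched for along the clusters. A segment was listed when at least 80% of the 16 KO and treated clone libraries and at most 20% of the 14 others covered it over at least 200 bp. There were 2 such segments in the clusters, among 9633 on chromosomes 1 to 22 and X. The clusters span only 99.7 kb (HOXA), 200 kb (HOXB), 117 kb (HOXC) and 103 kb (HOXD). The counts were not set against length, so they do not show such segments to be rare or frequent there. One lay inside HOXD13 (chromosome 2, 176091276 to 176091522), upstream of the RefSeq start used for the printed promoter window, and was covered in 13 to 15 of 16 libraries, against 1 to 2 of 14. The other lay inside HOXA11 (chromosome 7, 27182138 to 27182348), in 13 to 14 of 16 libraries, against 1 of 14. With the sets exchanged there was no segment in the clusters, among 211 elsewhere. In HOXA3 the largest split was at chromosome 7, 27125532 to 27125599, with 13 of 16 libraries against 1 of 14. In HOXD3 it was at chromosome 2, 176156483 to 176156568, with 11 of 16 libraries against 0 of 14.

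Genes that regulate the HOX genes or lie beside them were taken from 2 lists. Of 15 regulators of HOX genes (CDX factors, Polycomb and trithorax proteins) 8 were tested, and 1 was lost and 0 gained in KO clones and at day 21, where 0.744% and 0.494% of all tested genes were lost. After scaling by called length 3 of the 8 were lost in KO clones and 6 at day 21, against 13.5% and 32% of all tested genes.

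That regulator was CDX2, a caudal-type homeodomain factor that activates posterior HOX genes. It had 7.94% ± 7.08 in the 4 KO libraries, against 33.3% ± 5.15 in the 2 parental ones (SD, limma adjusted p = 0.000682). In the dTAG clones CDX2 had 10.5% ± 7.27 on day 21 and 27.7% ± 3.64 on day 0 (SD, 4 libraries each, limma adjusted p = 0.00181). On the scaled values the CDX2 differences were -42.0 points in KO clones and -46.7 at day 21 (limma adjusted p = 0.0106 and 0.000562). Scaling lowers values in longer lists, which KO and treated clones had. It therefore favours a loss by construction and adds no separate support. Of 13 genes that flank the clusters 11 were tested, and 3 were gained in KO clones and 5 at day 21, with 0 lost in either, where 18% and 26.5% of all tested genes were gained. After scaling by called length 1 was gained and 1 lost in each comparison. CALCOCO1, beside HOXC13, had 26.0% ± 4.11 in KO clones and 8.12% ± 7.15 in the parental line (adjusted p = 0.0212), and 23.3% ± 4.43 at day 21 and 8.88% ± 2.20 at day 0 (adjusted p = 0.0166). TTLL6, beside HOXB13, had 19.2% ± 3.61 at day 21 and 7.48% ± 3.14 at day 0 (adjusted p = 0.00254), and SMUG1, beyond HOXC4, 24.8% ± 6.23 and 13.5% ± 1.09 (adjusted p = 0.00823). SKAP2, beyond HOXA2, gained 2.79 points in KO clones and 3.31 at day 21 (adjusted p = 0.000684 and 2.59e-05), and its change by day 21 exceeded that of the parental line by 3.57 points (adjusted p = 0.0183). CDX2, CALCOCO1, TTLL6 and SMUG1 did not pass that test (adjusted p = 0.177, 0.497, 0.409 and 0.439), nor did SKAP2 after scaling (adjusted p = 0.121). After scaling by called length CALCOCO1 lost both calls, and SMUG1 turned to -6.38 points at day 21. TTLL6 lost its call at day 21 (1.41 points, adjusted p = 0.546) and was called lost in KO clones (-6.79 points, adjusted p = 0.0355). SKAP2 lost its call in KO clones (0.565 points, adjusted p = 0.533) and kept it at day 21 (1.63 points, adjusted p = 0.0177).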

How the data were processed

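H3K27me3 peak lists of 30 CUT&Tag libraries were used as deposited. Each gives a peak's position in hg38 with a score, a fold enrichment over background, a -log10 p and a -log10 q value, all set by the authors' peak caller. In the deposited lists the score is the -log10 q value times 10, cut to a whole number. Per the submitters' processing notes the tools were MACS3 3.0.2, Bowtie2, fastp 0.24.0, Picard, SAMtools, ChIPseeker 1.42.1, DESeq2 and deepTools 3.5.1, and the role of each is not given in the sources used here. Peaks were called per library, so replicates could be compared, but a deeper library yields more peaks. The files hold no read totals: depth was estimated as a background pileup from the authors' fold and -log10 p values, assuming that fold is (pileup + 1) / (background + 1).

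Peaks were merged within a library, and the percent of each gene body inside them was computed over the 19451 RefSeq (GRCh38.p14) protein-coding genes that reach 1 kb (Python 3.11.15, pandas 2.3.3, numpy 2.4.6). Genes with a mean of 1% to 99% were tested with limma 3.58.1 (R 4.3.3), which fitted 15 group means with 15 residual degrees of freedom, a trended prior and Benjamini-Hochberg adjustment at 0.05. The script was tested on simulated data. KO clones 3 and 12 were averaged and set against their parental line, and dTAG clones 8 and 11 against their own day 0. Both KO clones share 1 parental line, and the later days share day 0. Scaling by called length multiplied each library's values to an equal total. The HOX genes and the 2 further lists were chosen with earlier results of these data known, and a list of HOX cofactor genes is not reported here. Genes named were, per cluster, those with the most and least coverage before NSD2 loss, those with the largest rise and fall in KO clones and at day 21, and every called gene. From the other lists at most 4 called genes were named by size of difference. HOXA4, HOXA13 and further genes that mark a place in a cluster, outside that rule, were named after their values were seen. Windows of 25 kb and shared segments were added after seeing the data. No pair of libraries in a group was a duplicate: at most 0.147% of their intervals were identical.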

Additional observations from a re-analysis of the deposited data

Results flagged for a closer look

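In each pooled group of 4 libraries the library farthest from the other 3 was compared with their range for 28 features, the named HOX genes and the clusters, in 5 groups. Of 140 sets 25 had a library apart by Dixon's criterion. In most of the 25 sets 1 library had a peak in a short gene and the other 3 had none. Any such set is marked by construction. The criterion's usual rate of about 1 set in 20 assumes continuous values, so it gives no measure of excess here.

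Clone 11 day 14 replicate 1 stood apart for HOXA2 (19.0%), HOXA7 (68.8%), HOXA9 (14.2%) and HOXD10 (19.9%), with the other 3 at 0%. Clone 11 day 14 replicate 2 had 74.9% for HOXB2, where the others had 52.5% to 52.7%, and 17.5% for HOXD4, where the others had 0%. Clone 8 day 14 replicate 1 had 25.4% for HOXB5 and 8.76% for HOXD12, with the others at 0%.

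At day 21 clone 8 replicate 1 had 7.39% for HOXA9, 18.1% for HOXB5, 12.2% for HOXB8 and 47.5% for HOXD4, with the others at 0%. Clone 8 day 21 replicate 2 had 100% for HOXB13, where the others had 50.8% to 54.8%, and 1.42% for HOXD10 against 0%. Clone 11 day 21 replicate 1 had 11.5% for HOXB7 against 0%.

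At day 7 clone 11 replicate 1 had 15.1% for HOXB7 and replicate 2 had 34.1% for HOXD10, with the other 3 libraries at 0%. At day 0 clone 8 replicate 1 had 13.3% for HOXB7 and 21.1% for HOXD10 against 0%, 8.37% for HOXC13 against 0.246% to 1.61%, and 15.7% of the HOXA cluster against 13.3% to 13.6%. Clone 11 day 0 replicate 2 had 29.1% for HOXA7 against 0%, and replicate 1 had 23.8% for HOXA11 against 44.0% to 46.9%.

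Among the KO clones, clone 3 replicate 1 had 47.5% for HOXB5 and clone 12 replicate 1 had 8.69% for HOXB8, with the other 3 libraries at 0%.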

How the results depend on the processing

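For 45 differences of single HOX genes, 681 values were recomputed under alternatives. Of these 536 kept their direction and side of the threshold, 68 lost a call, 14 gained one, 51 changed sign with no call on either side, and 12 changed sign with a call. The causes were not tested beyond what each setting does by construction.

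Counts of HOX genes gained in KO clones (1) were 0 after scaling by called length, with lists of equal length, at -log10 q of at least 5, at fold of at least 4, within 2 kb of the gene start and with only the compared groups fitted, and 0 to 2 without 1 library. The count lost (1) was 10 after scaling, 0 with equal lists, at the stricter q or fold, with gaps up to 3 kb joined, at the gene start and with only the compared groups, and 0 to 2 without 1 library. Gains at day 7 (4) were 1 after scaling, with the pileup covariate or equal lists, 0 at the stricter q or fold and at the gene start, and 1 to 5 without 1 library. Gains at day 14 (1) were 0 with the pileup covariate, equal lists, stricter q or fold, at the gene start and with only the compared groups, 2 with gaps joined, and 0 to 2 without 1 library. Gains at day 21 (3) were 1 after scaling, with the pileup covariate, at the gene start and with only the compared groups, 0 with equal lists and the stricter q or fold, and 2 to 7 without 1 library. Losses (0) were 12, 16 and 14 after scaling at days 7, 14 and 21, and 1, 3 and 2 with the pileup covariate. In the test between dTAG clones and parental line, gains (0) were 2 after scaling and 0 to 1 without 1 library.

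Replicate numbers did not meet the criterion for pairing: over 105 pairs of groups, deviations correlated at 0.0335 to 0.558, over 0.1 in 84. Replicate 1 had the longer list in 13 of 15 groups. With a replicate block the gains were 4 at day 14 and 7 at day 21, and no other count of calls moved past 1.5 times.

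Cluster differences in KO clones (HOXA 3.73, HOXB 1.71, HOXC 1.33, HOXD 3.05 points) were -8.20, -9.49, -24.0 and -4.60 after scaling, -3.46, -1.39, -3.30 and 0.0353 at the stricter q, and 7.79, 8.14, 14.8 and 6.62 with gaps joined. HOXA, HOXB and HOXC were -0.993, -1.11 and -0.0386 with equal lists. HOXA was 0.0228 at the stricter fold, where HOXD was -0.591. Without 1 library they were 1.98 to 5.48, -1.62 to 5.03, -3.13 to 5.79 and 2.46 to 4.41. At day 21 (6.21, 3.48, 2.84 and 8.09 points) they were -10.9, -11.0, -31.3 and -0.683 after scaling, -1.33, -0.731, -5.95 and -0.150 with equal lists, and -1.01, -2.93, -8.42 and 0.761 at the stricter q. At the stricter fold HOXA was -0.201, HOXB -0.658 and HOXD -0.880, and with gaps joined HOXB was 12.6, HOXC 10.5 and HOXD 18.9. Without 1 library they were 5.03 to 8.12, 1.84 to 5.09, 0.854 to 5.69 and 6.43 to 9.31.

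Signs changed for HOXA3 at the stricter fold (-0.725 in KO clones, -0.555 at day 7, -1.01 at day 21), after scaling (-3.19 at day 7, -2.54 at day 21) and with equal lists (-0.762 at day 7). They also changed for HOXB3 at day 7 (-0.303 scaled, -1.72 equal lists), HOXD9 in KO clones (6.74, equal lists), HOXB2 at day 21 (38.1, gaps joined), and HOXC10 and HOXC12 at day 21 (-32.2 and -66.9, scaled). Depth is known only as an estimate, and short genes hold few peaks, so that 1 peak moves their percent by a large amount.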

Other observations

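The 2 unedited parental lines differed at the posterior end of HOXD. HOXD13 was at 31.5% and 33.1% in the KO parental line and at 0% to 8.74% in the 8 dTAG parental libraries, and HOXD9 was at 33.9% and 52.0% in the KO parental line and at 0% to 18.0% in the dTAG parental libraries. No test between the lines was run, and the pattern was noticed in the data.

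Within HOXB3 the split between libraries ran both ways. A stretch at chromosome 17, 48560891 to 48560920, was covered in 10 of 16 KO and treated clone libraries and in 0 of 14 others. Another, inside HOXB4 (48577776 to 48577785), was covered in 0 of 16 KO and treated clone libraries and in 12 of 14 others. These places were chosen as the largest splits in the gene and carry no test.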
